A study of Homo sapiens with 10 samples.

Results

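ABTr4 is 1 of 4 veliparib-resistant clones of the ovarian cancer line PEO1, and it was compared here with the mean of the other 3 clones, ABTr1, ABTr2 and ABTr3. Its members are the 2 count columns that carry its name, set against the 6 columns of the other clones, so that 8 of the 10 libraries of the series enter the comparison. The 2 libraries of parental PEO1, labelled WT, were not compared. They entered the fit, where they helped to filter genes, scale the libraries and estimate the replicate effect and the spread. PEO1 is an established epithelial line from a serous ovarian carcinoma and carries a BRCA2 mutation. All 4 clones share that origin and the same selection: 40 µM veliparib without a break for 6 months, then 4 to 5 days without drug before RNA was taken. Each name stands for 1 clone. The design text counts 15 samples from 3 independent experiments; 10 libraries, numbered 1 and 2 in each group, were analysed here. The labels do not tie a replicate number to an experiment, so the tests reflect variation among these libraries only, which may lie between experiments or within one. The sample descriptions number the clones in another order than the titles and columns (the libraries titled ABTr4 are described as clone 3). The titles are used throughout.

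Veliparib inhibits PARP1 and PARP2, enzymes that mark DNA breaks with poly(ADP-ribose). Cells without working homologous recombination, the repair route that needs BRCA2, depend on these enzymes and die when they are blocked. Resistant cells are known to arise by restored BRCA2, by loss of the factors that protect broken ends, by protected replication forks or by drug efflux pumps such as ABCB1. Epithelial ovarian cancer cells also vary in how epithelial they are: junction proteins, the matriptase system at the cell surface and integrins that grip laminin belong to the epithelial state, and matrix proteins such as fibronectin to the mesenchymal one.

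Libraries of polyadenylated RNA gave counts per gene. Total counts ran from 20640602 to 55488566 per library, with 46284483 and 30506227 in the ABTr4 libraries. Levels are given as CPM, counts scaled to library size with TMM factors, in which longer genes collect more reads. Markers of the labelled epithelial type summed to 3059 and 3088 CPM in ABTr4 and to 2707 to 3568 CPM in the other clones. All 10 of these markers had reads in ABTr4, led by keratin KRT8 at a mean of 1173 CPM, although E-cadherin, CDH1, stood at only 0.043 and 0.216 CPM. The 12 fibroblast markers summed to 149 and 160 CPM in ABTr4 against 141 to 205, with DCN, LUM, COL3A1, COL1A2 and DPT at 0 reads. The 13 leukocyte markers summed to 138 and 95.3 CPM against 80.6 to 182 (PTPRC and 5 others at 0 reads), and the 10 endothelial markers to 129 and 73.5 CPM against 69.2 to 117 (TEK at 0). The part of these markers in the results was not tested.

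ABTr4 differed from the other clones mainly by genes that were lower. Of 16490 genes tested, 90 passed (0.546%) at an adjusted p under 0.05 by edgeR's quasi-likelihood test with the replicate number as a block. Of these, 84 were lower in ABTr4 (0.509%) and 6 were higher (0.0364%), and 75 of the 90 differed at least 2-fold. In 82 of the 90, both ABTr4 libraries lay outside the range of all 6 other clone libraries: 78 below it and 4 above it. Over all tested genes, 868 had both ABTr4 libraries below the other 6 (5.26%) and 487 had both above (2.95%). The count of calls depended on the fit. It was 0 without the block (862 genes at an unadjusted p under 0.05), 557 with DESeq2, 154 with limma-voom and 549 when only the 8 clone libraries were fitted, and those 549 held all 90. Without ABTr4 replicate 1, edgeR kept none of the calls below, in a fit where 1 ABTr4 library was left. A call lost there does not show how far the difference depended on that library. With single libraries left out, log2 fold changes ran from -3.79 to -3.49 for SPOCK2 and from -4.61 to -2.18 for FN1. The count was 12 without ABTr4 replicate 2, 9 and 45 without ABTr1 replicates 1 and 2, 50 and 47 without ABTr2 replicates 1 and 2, 8 and 14 without ABTr3 replicates 1 and 2, and 580 and 669 without PEO1 replicates 1 and 2. Where the ABTr4 libraries are reduced to 1, that library is assumed to vary like the other groups. A called gene passed in 6 to 18 of the 21 other settings, with a median of 10. In RNA from whole cultures, fewer cells with a transcript and less of it per cell cannot be told apart.

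Among called genes that separated the groups and reached a mean of 5 CPM in the higher group, the largest falls were those of SPOCK2 and LSR. SPOCK2, a secreted proteoglycan of the matrix (hg19 chromosome 10, 73818792 to 73848790), had 19.1 and 32.8 CPM in ABTr4, and 304 and 359 CPM in ABTr1, 258 and 698 in ABTr2 and 178 and 271 in ABTr3. Every other clone library was above both ABTr4 libraries. Its log2 fold change was -3.67 (SE 0.33, adjusted p = 0.00418), a 12.7-fold lower level, with means of 25.9 ± 9.71 CPM (SD, n = 2 libraries) and 344 ± 127 CPM (SD over 3 clones). LSR, a receptor for lipoproteins that also builds tricellular junctions (chromosome 19, 35739559 to 35758867), had 2.02 and 3.29 CPM in ABTr4. The other clones ran from 18.1 to 38.1 CPM with a median of 24.9. LSR was thus 9.88-fold lower (log2 fold change -3.30, SE 0.33, adjusted p = 0.00763), with no overlap between the groups.

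SPINT1 and ST14, an inhibitor and its protease, fell together. ST14 is matriptase, a serine protease on the surface of epithelial cells (chromosome 11, 130029682 to 130080257), and SPINT1 (chromosome 15, 41136246 to 41149853) codes for its inhibitor HAI-1. SPINT1 had 4.67 and 12.9 CPM in ABTr4 against 22.2 to 63.6 CPM with a median of 39.3 (log2 fold change -2.29, SE 0.20, adjusted p = 0.00418). ST14 had 12.3 and 21.2 CPM against 35.6 to 86.4 CPM with a median of 64.7 (log2 fold change -1.88, SE 0.19, adjusted p = 0.00763). Neither gene overlapped between the groups, and both passed against each of the 3 clones alone. SPOCK2, LSR, SPINT1, ST14 and NRCAM kept their calls in 18 of the 21 other settings tried, the most of any called gene. These 5 lost them without the block, with libraries summed per clone, and without ABTr4 replicate 1.

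RefSeq promoter sequences of GRCh38.p14 are shown for LSR, a junction gene, and SPINT1, a called member of the epithelial list. They were picked after the values were seen. ST14, the other called member of that list, had no promoter entry. SPOCK2 and NRCAM, which passed in as many settings, were not searched. Each run is the 250 bases before an annotated start, on the plus strand. Capitals mark CACCTG or its reverse complement CAGGTG, the E-box bound by ZEB and SNAI repressors, searched on both strands.
LSR, chr19:35248752-35249001: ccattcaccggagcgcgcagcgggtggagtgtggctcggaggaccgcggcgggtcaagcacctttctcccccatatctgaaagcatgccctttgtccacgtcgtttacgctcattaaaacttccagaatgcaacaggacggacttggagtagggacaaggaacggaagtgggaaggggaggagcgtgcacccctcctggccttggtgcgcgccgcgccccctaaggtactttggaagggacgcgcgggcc
SPINT1, chr15:40844227-40844476: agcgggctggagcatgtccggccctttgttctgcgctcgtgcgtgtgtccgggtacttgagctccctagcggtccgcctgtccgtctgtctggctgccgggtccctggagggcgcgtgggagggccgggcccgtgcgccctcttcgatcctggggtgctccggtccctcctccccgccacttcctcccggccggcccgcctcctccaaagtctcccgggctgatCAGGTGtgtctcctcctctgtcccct
The SPINT1 window holds 1 match, 26 bases before the start, and the LSR window holds none. A second annotated start of SPINT1 (chr15:40843798-40844047) has none either. Of 35116 RefSeq promoter windows of the same length, 6143 (17.5%) hold the motif. A second motif, AACCGGTT, was also searched. It had no match in the windows of either gene, and 41 (0.117%) of the 35116 windows hold it. The match in SPINT1 is a description of the letters only. ZEB1 itself had 53.4 and 41.7 CPM in ABTr4 and 39.8 to 51.1 CPM in the other clones (edgeR adjusted p = 0.882). The levels of the other ZEB and SNAI genes are not given here. A link between any of these factors and SPINT1 or LSR was not tested.

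FN1, which codes for fibronectin, was 8.52-fold lower. The ABTr4 libraries had 374 and 2142 CPM, ABTr1 had 3858 and 7655, ABTr2 had 9218 and 9843, and ABTr3 had 18060 and 12880. The groups did not overlap, but the 2 ABTr4 libraries lay far apart, and FN1 sat at the threshold (log2 fold change -3.09, SE 0.57, adjusted p = 0.0499). Its log2 fold change was -2.18 without ABTr4 replicate 1 and -4.61 without ABTr4 replicate 2, and it passed in 7 of the 21 other settings, with ABTr4 replicate 2 left out among them. The call was lost without any 1 library of ABTr1, ABTr2 or ABTr3.

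NRCAM, a neuronal adhesion molecule coded on 7q, had 1.398 and 4.13 CPM in ABTr4 against 7.54 to 34.2 CPM (log2 fold change -2.98, SE 0.33, adjusted p = 0.00824). AJAP1, an adherens junction protein, had 3.03 and 1.63 CPM against 4.89 to 27.3 CPM (log2 fold change -2.67, adjusted p = 0.00824), with the nearest values in ABTr1. ID4, an inhibitor of helix-loop-helix transcription factors, had 1.57 and 2.31 CPM against 5.64 to 29.7 CPM (log2 fold change -2.80, adjusted p = 0.0182). In each of these 3 genes both ABTr4 libraries were the lowest of the 8. AJAP1 also lost its call without ABTr4 replicate 2, and ID4 without ABTr1 replicate 1 or ABTr3 replicate 1. The log2 fold change of ID4 was -2.17 without ABTr4 replicate 1 and -3.53 without ABTr4 replicate 2.

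Another 5 genes of the largest falls had the same order of groups with wider spread: LCP1, the actin bundler L-plastin, GALNT3, which starts mucin-type O-glycosylation, the homeobox gene MKX, CPT1A, which carries fatty acids into mitochondria, and IPCEF1. CPT1A had 4.13 and 9.12 CPM in ABTr4 and from 13.5 to 117 CPM in the others, highest in ABTr1, at 117 and 46.8. MKX had 3.48 and 3.30 CPM against 14.1 to 50.3 CPM. LCP1 had 3.70 and 1.79 CPM against 5.72 to 56.1 CPM, with ABTr1 at 11.3 and 5.72. Log2 fold changes were -2.51 for CPT1A, -2.58 for MKX, -2.96 for LCP1 and -2.87 for GALNT3, with adjusted p from 0.022 to 0.0472. The call of IPCEF1 (log2 fold change -3.23, adjusted p = 0.047) rested on 1 clone. ABTr1 had 62.1 and 15.5 CPM, while ABTr2 and ABTr3 had 0.177 to 0.402 and ABTr4 had 0.129 and 0.154. With ABTr1 left out of the reference its log2 fold change was -0.88 and did not pass. All 5 genes lost their calls without ABTr4 replicate 2 and without ABTr3 replicate 1 or 2, and 4 of them (not CPT1A) without ABTr1 replicate 1. GALNT3 moved to -3.59 without ABTr4 replicate 2, and IPCEF1 to -2.32 and -3.84 without ABTr4 replicates 1 and 2.

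No read was counted in ABTr4 for 2 called genes. ABCB1, the multidrug efflux pump P-glycoprotein (chromosome 7, 87133179 to 87342639), had 0 reads in both ABTr4 libraries and 264 reads over the other clones, at 0.472 to 1.73 CPM. The level in ABTr4 was at least 30.25-fold lower, taking 3 reads over both libraries as the limit that a count of 0 allows, for counting error only (edgeR adjusted p = 0.0281). FAM83F, named after its values were seen, had 0 reads against 300 and was at least 34.38-fold lower (adjusted p = 0.0182). Both genes were low in every clone, and ABCB1 passed in 13 of the 21 other settings.

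Only 6 genes were called higher in ABTr4. SCART1, a member of the scavenger receptor family, had 3.21 and 7.57 CPM against 0.164 to 1.32 CPM (log2 fold change 2.71, SE 0.35, adjusted p = 0.0207). CES1, a carboxylesterase named after its values were seen, had 3.18 and 3.76 CPM against 0.148 to 1.11 CPM (log2 fold change 2.66, adjusted p = 0.0424). In both, every ABTr4 library was above every other clone library. LRRC61 had 47.7 and 55.2 CPM against 17.1 to 41.2 CPM (log2 fold change 0.95, adjusted p = 0.0326). ATP6V0E2-AS1 had 21.8 and 14.01 CPM against 6.68 to 9.23 CPM (log2 fold change 1.18, adjusted p = 0.0498). Its reads cannot be told apart from those of overlapping genes on the opposite strand, since the library kit does not keep strand. The other two, EZH2 and RPL37, overlapped with the other clones.

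**Figure D1:**
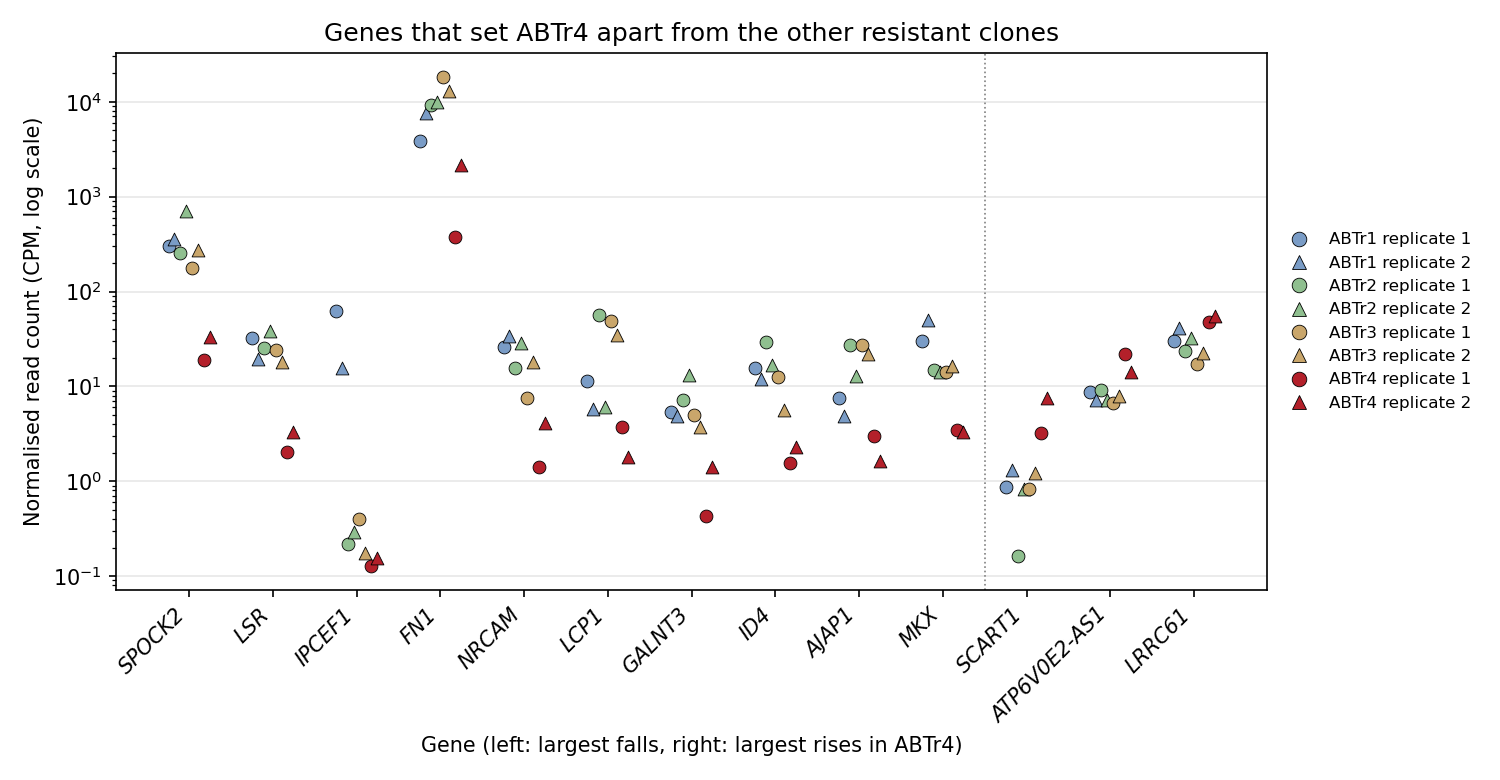
Normalised read counts (CPM, log axis) in each clone library of the 10 largest falls and the 3 rises among called genes that separated the groups and reached a mean of 5 CPM in the higher one; circles are replicate 1, triangles replicate 2, and red marks ABTr4. For SPOCK2 the ABTr4 libraries sit at 19.1 and 32.8 CPM below the other clones at 178 to 698, and for IPCEF1 only the 2 ABTr1 libraries stand high.

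Each clone taken alone gave another count. Against ABTr1, 254 genes passed (1.54%), 207 lower and 47 higher in ABTr4. Against ABTr2, 30 genes passed (0.182%), 29 lower and 1 higher, and against ABTr3, 52 passed (0.315%), 35 lower and 17 higher. These comparisons share the ABTr4 libraries, so they are given side by side only. ABTr4 replicate 1 correlated with ABTr4 replicate 2 at r = 0.967 across genes, and ABTr4 libraries correlated with same-numbered libraries of the other clones at 0.966 to 0.981 and with other-numbered ones at 0.935 to 0.969. Genes are not independent replicates, and these r values only describe how alike the libraries were. Without ABTr4 replicate 1 none of the 3 comparisons gave a call by edgeR (1651, 995 and 1047 genes at an unadjusted p under 0.05 against ABTr1, ABTr2 and ABTr3).

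Gene lists were read against these counts. Of 36 lists, 14 had a called member, and these members were 15 of the 90 called genes. Over all 16490 tested genes 0.509% were called lower and 0.0364% higher, the background for each list count below. Of the 15, 6 lie on 7q, described below. The sign of the fitted difference is given for the lists, since few members passed. Over all tested genes the median log2 fold change was 0.0074 and 868 of 16490 genes (5.26%) had both ABTr4 libraries lowest. By edgeR, 2210 of the 16490 genes had an unadjusted p under 0.05. So did 27 of 48 cytosolic ribosomal protein genes and 16 of 27 epithelial genes. The serous lineage list had 8 of 11, the hypoxia and glycolysis list 16 of 28, and integrins and laminins 14 of 29.

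Of 27 epithelial genes tested, 2 fell (SPINT1 and ST14) and none rose. The list's median log2 fold change was -0.93, 21 of 27 were negative, and in 6 both ABTr4 libraries were the lowest: CDH1, EPCAM, ESRP2, PKP3, ST14 and SPINT1. EPCAM, an epithelial surface adhesion protein, had 69.4 and 70.9 CPM in ABTr4 against 93.2 to 187 CPM (log2 fold change -0.78, SE 0.19, adjusted p = 0.107). ESRP2, a splicing factor of epithelial cells, had 14.07 and 9.27 CPM against 14.12 to 29.9 CPM (adjusted p = 0.094). CDH1 was near 0 in ABTr4 and ran from 0.236 CPM to 9.56 CPM in the others, highest in ABTr1 replicate 1 (log2 fold change -3.76, SE 1.19, adjusted p = 0.214). Its log2 fold change was -2.68 without ABTr4 replicate 1, -5.27 without ABTr4 replicate 2 and -3.10 without ABTr1 replicate 1. CLDN3, CLDN7, CDH3 and DSP had log2 fold changes of -1.43, -1.97, -1.76 and -1.07 and overlapped with other clones. When only the 8 clone libraries were fitted, 8 of the 27 passed, all lower, where 402 genes passed lower (2.46%) and 147 higher (0.899%) of 16343 tested.

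Of 20 mesenchymal genes tested, FN1 fell, none rose, and 15 had negative log2 fold changes. VIM, the intermediate filament vimentin, had 38.7 and 60.4 CPM in ABTr4, within the range of ABTr2 and ABTr3 at 37.9 to 97.2 CPM, and ABTr1 stood at 370 and 391 CPM. In the fit of the clone libraries alone VIM, FN1, SPARC and LOX passed, all lower. Of 11 serous lineage genes 9 had negative log2 fold changes, with a median of -1.13. In 3 of them (27.3%, against 5.26% of all tested genes) both ABTr4 libraries were lowest. By edgeR 1 passed, mesothelin, MSLN (log2 fold change -1.24, SE 0.21, adjusted p = 0.0424). It fell from 94.5 to 179 CPM in the others to 38.8 and 78.9 CPM. The transcription factor PAX8 had 95.2 and 96.1 CPM against 117 to 200 CPM and did not pass (adjusted p = 0.237). The 8 lineage markers together summed to 163 and 211 CPM in ABTr4 and to 294 to 414 CPM in the others, and the 8 mesothelial markers, led by MSLN, to 48.3 and 91.6 CPM against 113 to 194 CPM.

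Laminins are matrix proteins of the basement membrane, and integrins the receptors that hold them. Of 29 integrins and laminins, 1 passed: ITGB4, the integrin of hemidesmosomes, fell (log2 fold change -2.12, SE 0.35, adjusted p = 0.0424). Its libraries had 23.4 and 105 CPM in ABTr4 against 84.4 to 520 CPM, so the second ABTr4 library overlapped with ABTr2 and ABTr3. That overlap was with their replicate 1 libraries. Among libraries of the same number ABTr4 was lowest, at 23.4 against 84.4 to 339 CPM and 105 against 164 to 520 CPM. The median of the list was -0.59 and 25 of 29 were negative, but only in ITGA3 and LAMA5 (6.9%) were both ABTr4 libraries lowest. The clone libraries alone gave 7 lower, among them ITGB4, its partner ITGA6, ITGB8, and the laminin chains LAMA4, LAMA5 and LAMB2.

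Among 34 genes of neural adhesion and axon guidance, NRCAM and SEMA3C fell, 30 were negative and the median was -0.34. Both called members lie on 7q. In 8 of the 34 (23.5%) both ABTr4 libraries were lowest, among them L1CAM and NCAM1, adhesion molecules of the immunoglobulin family. L1CAM had 16.1 and 83.8 CPM against 116 to 307 CPM (log2 fold change -2.20, SE 0.47, adjusted p = 0.0821), and NCAM1 had 11.1 and 16.5 CPM against 20.3 to 49.9 CPM (adjusted p = 0.147). Neither passed here, and both passed in the fit of the clone libraries, with 8 others of the list, all lower.

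In 10 of 28 hypoxia and glycolysis genes (35.7%) both ABTr4 libraries were lowest, and 23 were negative, with a median of -0.47. By the test 1 member fell: ADM, the vasodilator peptide adrenomedullin, with 8.63 and 16.1 CPM against 17.5 to 81.2 CPM (log2 fold change -1.92, SE 0.35, adjusted p = 0.0498). The glucose transporter SLC2A1 had 62.6 and 80.4 CPM against 111 to 284 CPM (log2 fold change -1.33, adjusted p = 0.0622). NDRG1 had 203 and 248 CPM against 490 to 938 CPM (log2 fold change -1.43, adjusted p = 0.0644). The glycolytic enzyme PGK1 had 589 and 584 CPM against 797 to 1401 CPM (adjusted p = 0.133). In each of these 4 genes the groups did not overlap, and with only the clone libraries fitted 7 of the 28 passed, all lower.

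**Figure D2:**
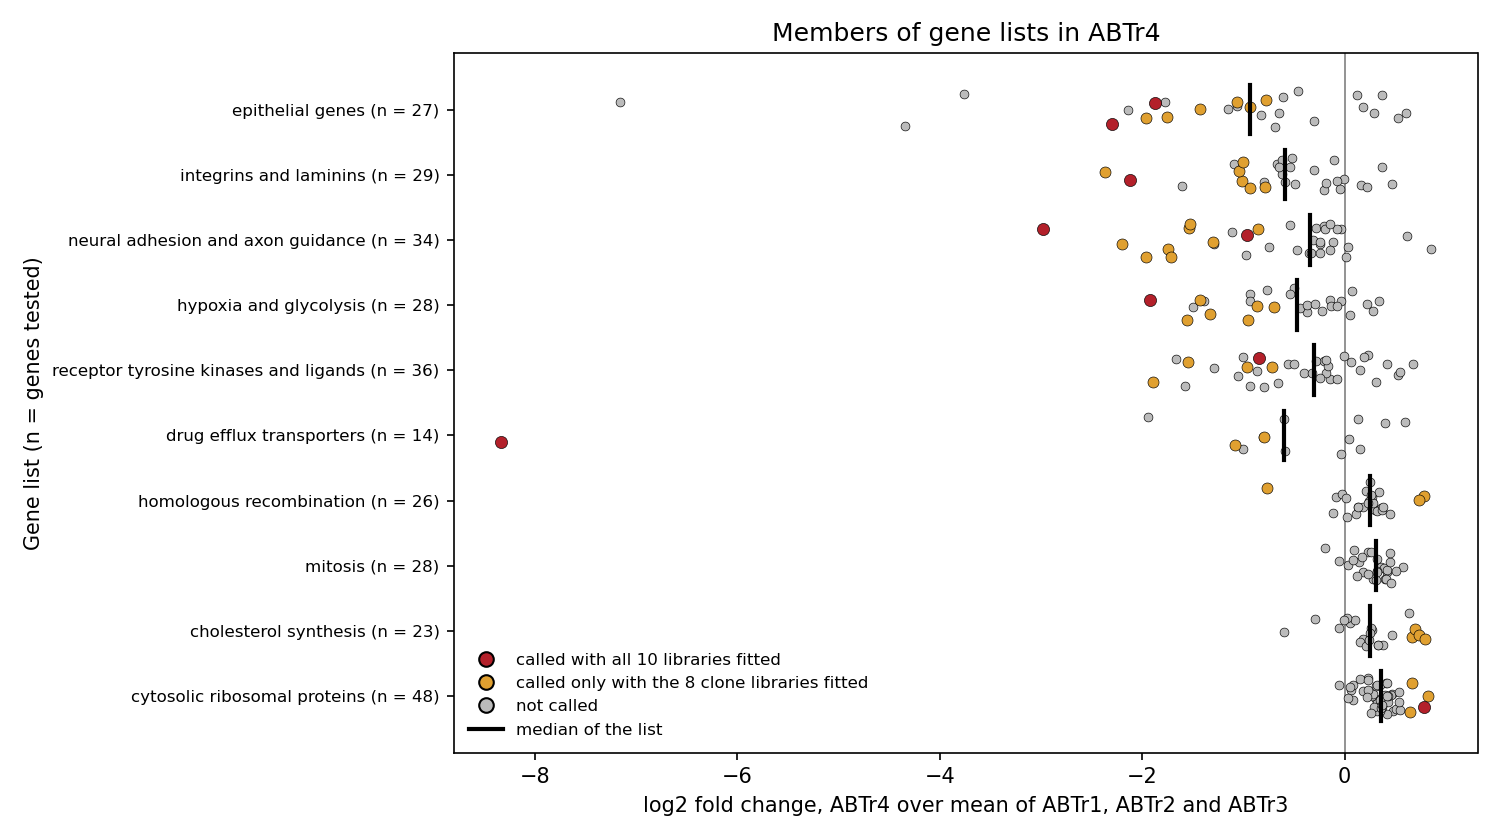
Fitted log2 fold changes of ABTr4 over the mean of the other 3 clones for the members of 10 gene lists, each point a gene and each bar the median of its list; red points passed with all 10 libraries fitted and orange points only with the 8 clone libraries. Epithelial genes have a median of -0.93 and ribosomal proteins one of 0.355; the red point near -8 is ABCB1, whose fitted value rests on 0 reads in ABTr4.

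The Wnt, receptor tyrosine kinase, interferon and apoptosis lists each held 1 call by edgeR with all libraries. DESeq2 called 4, 8, 3 and 3 of their genes, and the fit of the clone libraries alone 4, 5, 3 and 2. LGR4, a receptor for R-spondins, fell among 29 Wnt genes (18.5 and 19.3 CPM against 29.4 to 51.3 CPM, log2 fold change -0.99, adjusted p = 0.0498). EPHB4, a receptor for ephrins, fell among 36 receptor tyrosine kinases and ligands (49.2 and 48.1 CPM against 73.6 to 111 CPM, log2 fold change -0.85, adjusted p = 0.047), and SAMD9, an interferon-induced gene, among 37 interferon genes (26.3 and 32.0 CPM against 61.4 to 86.1 CPM, log2 fold change -1.29, adjusted p = 0.0321). In LGR4, EPHB4 and SAMD9 the groups did not overlap. HRK, a BH3-only activator of cell death, fell among 28 apoptosis genes (log2 fold change -1.85, adjusted p = 0.045), but its 1.20 and 2.31 CPM in ABTr4 overlapped with ABTr1 at 1.87 and 2.83 CPM. HRK separated ABTr4 from ABTr2 and ABTr3, which had 6.87 to 14.6 CPM. Among libraries of the same number ABTr4 had the lowest HRK level for both numbers.

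Mitosis, replication and ribosomal protein genes had mostly small positive differences. Of 28 mitosis genes 26 were positive, with a median of 0.31, and of 34 DNA replication genes 29, with a median of 0.27. None passed by edgeR or DESeq2, and 4 of each list had an unadjusted p under 0.05, against 2210 of all 16490 genes. Of 48 cytosolic ribosomal protein genes 47 were positive, the median was 0.355, and RPL37 rose (log2 fold change 0.78, SE 0.14, adjusted p = 0.0472). RPL37 had 692 and 1513 CPM in ABTr4 and 696 and 1378 CPM in ABTr2, against 339 to 674 CPM in ABTr1 and ABTr3, so its level was shared with ABTr2 (log2 fold change 0.07 against that clone). Ribosomal protein genes have many processed copies in the genome, and their counts depend on how reads with several matches were treated. Among 23 cholesterol synthesis genes 19 were positive and none passed by edgeR (7 at an unadjusted p under 0.05, 4 called by DESeq2). HMGCS1, IDI1, MSMO1 and INSIG1 passed, all higher, when only the clone libraries were fitted. EZH2, the methyltransferase of Polycomb repressive complex 2 and a member of the fork protection and the chromatin lists, rose from 38.2 to 92.9 CPM in the others to 158 and 90.8 CPM (log2 fold change 0.93, SE 0.16, adjusted p = 0.0445). Its second ABTr4 library lay within the range of ABTr3, but among libraries of the same number ABTr4 was highest for both numbers.

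No member of the homologous recombination, end protection, PARP or Fanconi anemia lists passed by edgeR. At an unadjusted p under 0.05 these lists had 3, 1, 4 and 2 of 26, 19, 19 and 16 genes tested, against 2210 of all 16490. DESeq2 called 3 and limma-voom 1 in homologous recombination, and both called 0 in the others. Both ABTr4 libraries were highest in 2 of 16 Fanconi anemia genes (12.5%, against 2.95% of all tested genes) and lowest in 0. In the PARP list they were lowest in 2 of 19 (10.5%, against 5.26%) and highest in 1. In the end protection list they were lowest in 0 and highest in 0. BRCA2 had 43.8 and 17.98 CPM in ABTr4 against 10.7 to 76.9 CPM (log2 fold change -0.11, SE 0.23, adjusted p = 0.882), and in every clone the first library was the higher one. BRCA1 had a log2 fold change of 0.27 (SE 0.21, adjusted p = 0.64), PARP1 of 0.16 (SE 0.20), PARP2 of 0.42 (SE 0.18, adjusted p = 0.342) and PARG, which removes poly(ADP-ribose), of 0.07 (SE 0.17). TP53BP1, which protects broken ends, had 98.9 and 95.3 CPM against 85.9 to 125 CPM, a log2 fold change that rounds to 0, and MAD2L2 of the shieldin pathway had 0.28 (SE 0.18). SLFN11, which acts at stalled forks, was at 129 and 91.8 CPM against 91.1 to 162 CPM (log2 fold change -0.13, SE 0.16). Each of these groups overlapped. Of 26 homologous recombination genes 22 were positive, with a median of 0.25. The one whose ABTr4 libraries were both lowest was SHFM1, the small BRCA2 partner DSS1 coded on 7q, with 45.2 and 43.1 CPM against 62.8 to 87.1 CPM (log2 fold change -0.77, SE 0.16, adjusted p = 0.0714). SHFM1 passed with only the clone libraries, as did XRCC2 and RAD52, which were higher.

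Of 14 drug efflux genes edgeR with all libraries called ABCB1, and the list median was -0.60. Of the 14, 7 had an unadjusted p under 0.05, DESeq2 called 5 and limma-voom 2, and the fit of the clone libraries alone called ABCB1, ABCA1 and ABCA3, all lower. ABCG2 had 2.35 and 2.25 CPM against 2.62 to 10.9 CPM (edgeR adjusted p = 0.411). Both ABTr4 libraries were lowest in 3 of the 14 (21.4%, against 5.26% of all tested genes). They were highest in 1, ABCC2 (7.14%, against 2.95%). Of the 14, 9 had negative and 5 positive log2 fold changes. Among 22 genes of translation termination and nonsense-mediated decay, 18 were positive and none passed by edgeR or DESeq2 (2 at an unadjusted p under 0.05): ETF1 had a log2 fold change of 0.24, GSPT1 of 0.19, UPF1 of 0.18 and SMG1 of -0.09. The remaining lists had no call either. DESeq2 called 25 and limma-voom 3 of the 493 genes of all 22 lists without a call. At an unadjusted p under 0.05 these lists had 86 genes, against 2210 of all 16490 tested. Their medians were 0.08 for end joining and end protection, 0.06 for the PARP family and single-strand break repair, 0.22 for Fanconi anemia, 0.35 for 26 HOX genes (23 positive), 0.18 for the respiratory chain and 0.12 for NRF2 genes. Negative medians were -0.38 for collagens, -0.37 for matrix proteases and inhibitors, -0.40 for NF-kB and inflammation, -0.29 for TGF-beta and BMP signaling, -0.23 for aldehyde dehydrogenases and retinoid genes, -0.17 for Notch signaling and for the 4 cancer-testis genes tested, -0.12 for p53 targets, -0.11 for the unfolded protein response, -0.08 for ATF4 targets and -0.05 for antigen presentation. MMP2 (log2 fold change 0.29, adjusted p = 0.59) and IL1B (-0.43, adjusted p = 0.729) overlapped between the groups.

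The calls were unevenly spread over the genome. Of the 90 called genes 32 lie on the long arm of chromosome 7 (7q), 29 lower and 3 higher, among 538 genes tested there. Over all 16490 tested genes 84 were called lower (0.509%) and 6 higher (0.0364%). The other 55 lower genes lie elsewhere. The median log2 fold change of 7q was -0.33 over all tested genes, and it stayed between -0.38 and -0.25 in the settings tried. Xp and 3p had medians close to it, at -0.31 and -0.30. Over genes with at least 5 CPM the 3 arms lay at -0.29, -0.30 and -0.30, with 27, 1 and 1 genes called lower. DNA copy number was not measured in these libraries.

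Along 7q the genes formed blocks, whose borders were drawn after the values had been seen. From 60 to 75 Mb, 39 of 44 genes with at least 5 CPM were negative, with a median log2 fold change of -0.205, and 0 were called. That median was -0.14, -0.21 and -0.27 against ABTr1, ABTr2 and ABTr3. Between 75 and 125 Mb, 162 of 166 genes with at least 5 CPM were negative. Their median log2 fold change was -0.70, a ratio of 0.617, and it was -0.69, -0.76 and -0.69 against ABTr1, ABTr2 and ABTr3. Both ABTr4 libraries were lowest in 96 of the 166 (57.8%, against 5.8% of all 11232 genes at this level) and 27 were called lower (16.3%, against 0.659%). From 125 to 140 Mb the median of 58 genes was 0.01, and from 140 to 155 Mb 55 of 63 genes were positive with a median of 0.45, a ratio of 1.366. In 19 of these 63 (30.2%, against 3.16% of all 11232 genes at this level) both ABTr4 libraries were highest. The 3 genes called higher (4.76%, against 0.0356%) were EZH2, LRRC61 and ATP6V0E2-AS1. In steps of 5 Mb the medians from 140 to 155 Mb were 0.23, 0.61 and 0.47. From 155 to 160 Mb, the end of the arm, the median of 12 genes was -0.05, with 6 negative and 6 positive. XRCC2 and INSIG1 also lie on 7q and had log2 fold changes of 0.79 and 0.80 (adjusted p = 0.157 and 0.0901).

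ARPC1B and ARPC1A, neighbouring genes for subunits of the actin-nucleating Arp2/3 complex, fell to similar ratios. ARPC1B (98972298 to 98992404) had 128 and 148 CPM in ABTr4 against 265 to 397 CPM with a median of 310.0 (log2 fold change -1.19, SE 0.21, adjusted p = 0.0472). ARPC1A (98923496 to 98963885) had 68.4 and 91.1 CPM against 112 to 215 CPM (log2 fold change -1.02, SE 0.19, adjusted p = 0.0499). SEMA3C, a secreted semaphorin, had 87.3 and 105 CPM against 144 to 260 CPM (log2 fold change -0.97, SE 0.17, adjusted p = 0.045). These 3 genes each separated the groups, at 0.439, 0.495 and 0.512 of the level in the other clones. ANKIB1, a gene with ankyrin repeats, had 39.8 and 59.1 CPM against 88.5 to 158 CPM (log2 fold change -1.27, adjusted p = 0.0212), and FAM3C, a secreted cytokine-like protein, had 40.8 and 44.5 CPM against 68.8 to 170 CPM (log2 fold change -1.24, adjusted p = 0.0433). SAMD9, EPHB4, NRCAM and ABCB1, described above, lie in the same block, as does MET, the receptor of hepatocyte growth factor, with 330 and 222 CPM against 368 to 487 CPM (adjusted p = 0.138).

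**Figure D3:**
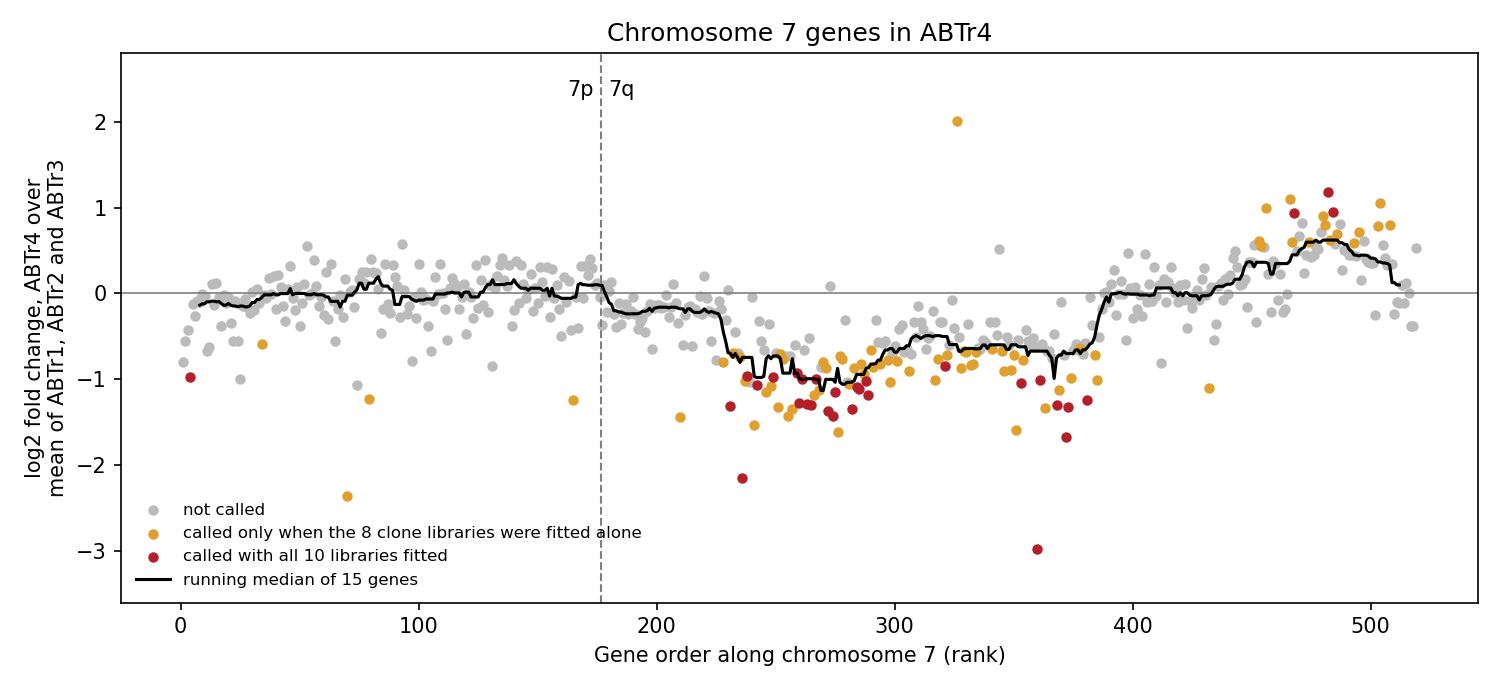
Fitted log2 fold change of ABTr4 over the mean of the other 3 clones for chromosome 7 genes in order along the chromosome; the line is a running median of 15 genes, red genes passed with all 10 libraries and orange genes only with the 8 clone libraries. The line lies a little below 0 over the proximal part of 7q, where the median was -0.205. It lies further below 0 over the interior, where the median was -0.70, and returns to 0. It then lies above 0 from 140 to 155 Mb, where the median was 0.45. The last 12 genes, from 155 to 160 Mb, had a median of -0.05.

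On 3p, 297 of 323 genes were negative with a median of -0.30. Both ABTr4 libraries were lowest in 60 (18.6%, against 5.8% of all 11232 genes with at least 5 CPM). Of the 323 genes 1 was called lower, EIF4E3 (0.31%, against 0.659%). On Xp, 140 of 156 genes were negative with a median of -0.30. Both ABTr4 libraries were lowest in 30 (19.2%, against the same 5.8%), and 1 gene was called lower, TMEM47 (0.641%, against 0.659%). Both genes are named after their values were seen. On 5p, 86 of 99 genes were positive with a median of 0.32. The 5p level was shared with ABTr2: medians were 0.51 against ABTr1 and 0.48 against ABTr3, and -0.09 against ABTr2. RPL37 lies on 5p.

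**Figure D4:**
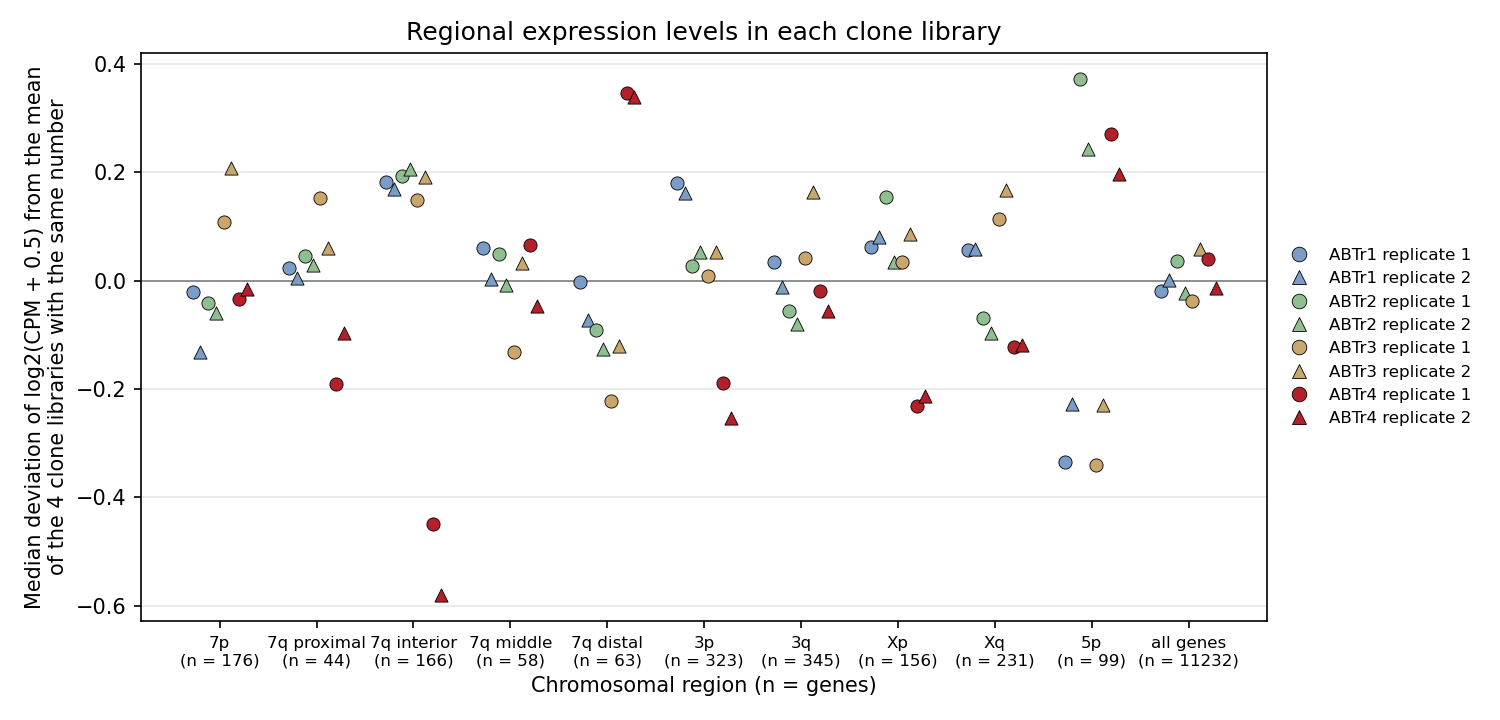
Median deviation of log2(CPM + 0.5) from the mean of the 4 clone libraries with the same replicate number, for each clone library in each region; n is the number of genes with at least 5 CPM, circles are replicate 1 and triangles replicate 2. Both ABTr4 libraries (red) lie at -0.45 and -0.58 for the interior of 7q and at 0.35 and 0.34 for its distal part, and on 5p ABTr4 and ABTr2 lie together above 0.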

How the data were processed

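RNA-seq counts per gene were analysed as the authors deposited them, raw and unnormalized. The submitters' processing notes name TopHat2 2.0.14 for alignment, the build hg19, and featureCounts 1.4.6 from Subread for counting. Per the labels' protocols, the kit was TruSeq RNA v2, which does not keep strand. How strand and reads with several matches were handled is not given in the sources used here. The table held 25370 genes, of which 326 were listed on several chromosomes and 28 had a date for a symbol.

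The filter of edgeR 4.0.16 kept 16490 genes. With TMM factors, a mean per group and the replicate number as a block, quasi-likelihood tests were run on all 10 libraries (4 residual degrees of freedom) for ABTr4 minus the mean of ABTr1, ABTr2 and ABTr3, and p-values were adjusted by Benjamini-Hochberg over all tested genes. Same-numbered libraries deviated together from their group means, with correlations of 0.28 to 0.731 over the 10 pairs of groups, all over the limit of 0.1 set for a pairing. No 2 libraries agreed within sampling noise (chi-square per degree of freedom of at least 76.08 between clone libraries).

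Named genes were the up to 12 largest falls and rises that passed, reached 5 CPM and separated the groups, up to 4 called members of each list, 5 called genes from the extreme chromosome arms, and a fixed set of repair, efflux and lineage genes. The groups, the 36 lists (953 of 955 entries matched) and the named set were chosen with earlier results of these data known. Alternatives were no block, DESeq2 1.42.0, its size factors, limma-voom (limma 3.58.1), other filters, only the clones, each library or clone left out, and libraries summed per clone. The tests were checked on simulated counts with no replicate effect, a common spread and, apart from genes changed in ABTr4, equal means in all clones. That setting differs from these data, so the check does not show how well the block works here. Values of 2 genes are not reported here. RefSeq names and promoters of GRCh38.p14 were used for names and sequences only.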

Additional observations from a re-analysis of the deposited data

How the results depend on the processing

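The count of 90 called genes was 0 without the replicate block (0 higher, 0 lower), 557 with DESeq2 (94 higher, 463 lower), 154 with limma-voom (21 higher, 133 lower), 211 with no filter (33 higher, 178 lower), 43 with the stricter filter (39 lower) and 549 with only the clone libraries (147 higher, 402 lower). Size factors of DESeq2 in edgeR gave 74. With libraries summed per clone it was 0 (0 higher, 0 lower; 699 genes at an unadjusted p under 0.05). With ABTr1, ABTr2 or ABTr3 left out of the reference it was 32 (2 higher, 30 lower), 53 (48 lower) and 108. Leaving out single libraries gave 0 to 669 calls, 0 to 182 higher and 0 to 487 lower. Against ABTr1, the 254 calls became 0 without the block, 1262 with DESeq2, 391 with limma-voom, 578 with no filter and 1626 with only the clones, and 0 to 1740 with single libraries left out. Against ABTr2, the 30 calls became 0, 391, 74, 120 and 335, with 14 under the stricter filter and 0 to 474 with single libraries left out. Against ABTr3, the 52 calls became 0, 406, 84, 140 and 417, with 33 under the stricter filter and 0 to 487 with single libraries left out. No gene named as called changed direction under any of the 21 settings. Signs turned only in genes that were not called. With single libraries left out, log2 fold changes ran from -0.348 to 0.113 for BRCA2, from -0.085 to 0.387 for PARP1, from -0.105 to 0.232 for PARG, from -0.052 to 0.409 for GSPT1, from -0.191 to 0.043 for SMG1, from -0.198 to 0.341 for ZEB1, from -0.653 to 0.063 for IL1B and from -0.049 to 0.055 for TP53BP1. With ABTr3 out of the reference, BRCA2 was at 0.191, SMG1 at 0.10, IL1B at 0.040 and MMP2 at -0.498. TP53BP1, at 0 in the fit reported, was at 0.010 with either use of DESeq2 size factors, 0.003 with limma-voom, 0.021 with no filter, 0.012 with the stricter filter, 0.019 with only the clones, 0.005 with libraries summed per clone and 0.119 with ABTr1 out of the reference. The causes were not tested. The biological coefficient of variation was 0.2345 in the fit reported, 0.3684 without the block and 0.1954 with only the clones.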

Other observations

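Of the 90 called genes 75 belong to no list, and those described here were picked after their values were seen. F2RL1, a receptor that proteases open and a known substrate of matriptase, had 12.03 and 11.98 CPM in ABTr4 against 21.1 to 31.9 CPM (log2 fold change -1.14, SE 0.18, adjusted p = 0.0394). CXCL16, a membrane-bound chemokine, had 7.62 and 9.45 CPM against 16.5 to 25.5 CPM (log2 fold change -1.24, adjusted p = 0.022). CTSB, the lysosomal protease cathepsin B, had 93.4 and 119 CPM against 171 to 489 CPM (log2 fold change -1.44, adjusted p = 0.0207), and IRS2, an adaptor of the insulin receptor, had 23.9 and 30.1 CPM against 56.4 to 199 CPM (log2 fold change -1.94, adjusted p = 0.045). In each of these 4 genes both ABTr4 libraries were below the other 6.

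PYCARD, the inflammasome adaptor ASC, had 0.151 and 0.246 CPM in ABTr4 against 1.18 to 4.89 CPM (log2 fold change -3.63, adjusted p = 0.0312). VCAN, the matrix proteoglycan versican, had 2 reads in ABTr4 against 250 in the other clones, or 42.97-fold less per library size (counting error alone allows 11.77 to 356.8 at 95%; adjusted p = 0.0355). On 7q, TES, a focal adhesion protein, had 35.4 and 24.3 CPM against 75.1 to 113 CPM (log2 fold change -1.68, adjusted p = 0.0293), and CAV2, a caveolin, had 15.5 and 29.96 CPM against 42.3 to 75.3 CPM (log2 fold change -1.32, adjusted p = 0.0472). All p-values are from edgeR with the block, and none of these genes passed without ABTr4 replicate 1.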
